A study of Mus musculus with 2 samples.

Results

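The cells described here are smooth muscle cells of injured mouse carotid arteries, selected from single-cell RNA counts of 2 libraries. A cell barcode was kept when it had at least 300 detected genes and at most 15% mitochondrial UMIs (unique molecular identifiers, each standing for 1 captured RNA molecule). A kept cell was a member when it held at least 2 UMIs of Myh11, at least 2 of the 6 genes Itga8, Npnt, Synpo2, Cnn1, Myocd and Thsd4, and no more than 1 of the 5 genes Ptprc, Csf1r, Pdgfra, Pecam1 and Cdh5. This selected 831 of 14451 kept cells, 489 of 7712 in the EC-Cx43-KO library and 342 of 6739 in the control library. Position in the vessel wall was not measured, so "medial" rests on these genes.

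The study asked how loss of connexin 43 from the endothelium changes the response to carotid injury. EC-Cx43-KO mice carried an inducible, endothelium-restricted Cre driven by Cdh5 and 2 floxed alleles of the connexin 43 gene, Gja1. Control mice carried the same floxed alleles without Cre, so both groups had the floxed gene. Arteries were collected 18 hours after a temporary ligation injury, pooled within a group, digested briefly with liberase, cleared of red cells and stored frozen before 3′ droplet sequencing. Each group is 1 library, and the group names are those of the labels, which the Gja1 counts given further on do not check. There is no replicate check and no p-value between groups, and every interval given covers counting error only.

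Vascular smooth muscle cells wrap the vessel in the media and set its calibre by contracting through smooth muscle myosin and actin. Contractile genes are driven by serum response factor with its coactivator myocardin. After injury these cells can lower the contractile programme, divide, make matrix and secrete chemokines, a change called phenotypic modulation. Interferon-stimulated genes are a separate programme, switched on through STAT and IRF factors that bind interferon-stimulated response elements in promoters.

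The EC-Cx43-KO library held 54392831 UMIs in 8315 barcodes and the control library 48862850 UMIs in 7298 barcodes. Members held 4911393 UMIs in the EC-Cx43-KO library and 3305629 in the control library, with medians of 8871 and 8585.5 UMIs per cell. The median mitochondrial share of members was 3.09% in the EC-Cx43-KO library and 3.53% in the control library. The libraries had 17 barcodes in common, and no member shared its barcode with a member of the other library. Leukocyte, platelet and red cell markers stood in members at a median of 1.84% of their whole-library level in the EC-Cx43-KO library and 2.49% in the control library. The neutrophil markers among them stood at 3.19% in the EC-Cx43-KO library and 22.5% in the control library. The rule limited Ptprc and Csf1r, so low leukocyte levels partly describe the selection.

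Levels are CPM, the UMIs of a gene per 1000000 UMIs summed over the members of a library. Members made up 6.34% of kept EC-Cx43-KO cells (95% exact binomial interval 5.81 to 6.91) and 5.07% of kept control cells (4.56 to 5.63). The log2 ratio of the shares was 0.32 (0.13 to 0.51). Digestion and cell recovery also set such a share, and their part in the difference was not tested.

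The label was checked against its markers. The 6 smooth muscle markers Myh11, Acta2, Tagln, Itga8, Npnt and Cnn1 summed to 21803 CPM in EC-Cx43-KO members, against 492 CPM in the other kept cells of that library. In the control library they summed to 21385 CPM in members, against 429 CPM in the other kept cells. Since the rule used several of these genes, the contrast describes the selection. A member held a median of 25 Myh11 UMIs in both libraries, and only 7 EC-Cx43-KO members and 10 control members sat at the limit of 2. The 17 EC-Cx43-KO cells and 16 control cells just outside, with 1 Myh11 UMI, had 3168 and 3568 CPM of the fibroblast proteoglycan gene Dcn. A further 80 EC-Cx43-KO cells and 77 control cells failed only the limit on other lineages, with medians of 14390 and 14224 UMIs.

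Contractile genes stood at nearly the same level in both libraries. Acta2, smooth muscle actin, was at 9958 CPM in EC-Cx43-KO members and 9765 CPM in control members. Tagln, the actin-binding protein transgelin, was at 5754 CPM in EC-Cx43-KO members and 4906 CPM in control members. Myh11, the smooth muscle myosin heavy chain (chromosome 16, 14194535 to 14291372, minus strand, GRCm38), was at 2997 CPM in EC-Cx43-KO members and 3225 CPM in control members. A gene was counted as higher or lower between libraries when its log2 ratio, EC-Cx43-KO over control, was at least 0.58 in size and it had at least 20 UMIs over both libraries. Of 11794 such genes 6.88% were higher and 5.16% lower, and the median log2 ratio was -0.02. None of 29 contractile genes was past that size in either direction, their median was -0.08, and they ran between -0.51 for Actg2 and 0.23 for Tagln. When no UMI of another lineage was allowed 2 of them passed the size, and 3 did within each of the classes by sex-linked transcripts given further on.

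**Figure D1:**
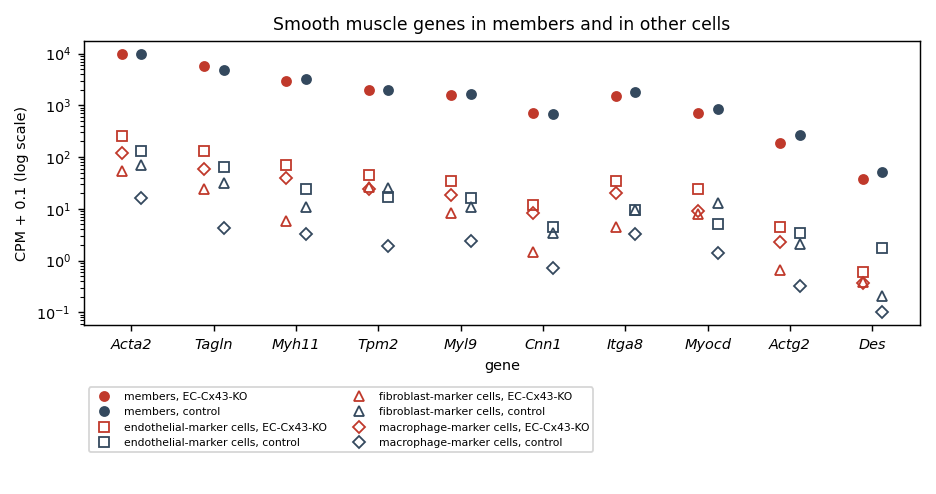
CPM plus 0.1, on a log axis, of 10 smooth muscle genes in members (filled circles) and in cells chosen by endothelial, fibroblast or macrophage markers (open symbols), with EC-Cx43-KO left and control right for each gene. Acta2 stood at 9958 CPM in EC-Cx43-KO members and 9765 CPM in control members, and every gene drawn was higher in members than in the other classes of both libraries.

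Against other kept cells, 25 of the 26 contractile genes that the rule did not use were at least 4-fold more abundant in members in both libraries, beside 6.94% of all genes measured. The other 3, Myh11, Cnn1 and Synpo2, were used by the rule, and since it chose these cells the contrast is a description. The exception was Tagln2, a transgelin paralogue found in many cell types. The highest ratios to other kept cells, outside the genes of the rule, included the intermediate filament gene Des, the potassium channel subunit gene Kcnmb1, Tpm2 and Myl9. Des stood at 37.7 CPM in EC-Cx43-KO members and 52.0 CPM in control members. Kcnmb1, which raises the calcium sensitivity of the large-conductance channel, stood at 130 CPM in EC-Cx43-KO members and 141 CPM in control members. The log2 ratio between libraries was -0.47 (-0.77 to -0.16) for Des and -0.12 (-0.29 to 0.06) for Kcnmb1.

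Among 22 regulators of contractile genes 1 was lower, beside 5.16% over all genes. It was Klf5, with 18 UMIs in EC-Cx43-KO members and 19 in control members (log2 ratio -0.65, -1.66 to 0.36). Myocd, the gene of myocardin, was at 706 CPM in EC-Cx43-KO members and 840 CPM in control members, a log2 ratio of -0.25 (-0.32 to -0.18). Klf4, a factor that represses contractile genes, was at 540 CPM in EC-Cx43-KO members and 549 CPM in control members. Of 22 ion channel and calcium handling genes 2 were higher and 1 lower, beside 6.88% higher and 5.16% lower over all genes. Pln, the calcium pump inhibitor phospholamban, had 81 UMIs in EC-Cx43-KO members and 35 in control members (log2 ratio 0.64, 0.05 to 1.25). Of 19 vasoactive receptor and cyclic GMP genes 1 was higher, beside the same 6.88%. None of 30 basement membrane and integrin genes passed the size.

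Of 27 elastic and interstitial matrix genes 3 were higher and none lower, beside 6.88% higher over all genes. Their median log2 ratio was -0.04. Eln, the elastin gene, was at 2541 CPM in EC-Cx43-KO members and 3454 CPM in control members, a log2 ratio of -0.44 (-0.48 to -0.41). Mgp, an inhibitor of calcification, was at 2909 CPM in EC-Cx43-KO members and 4151 CPM in control members (log2 ratio -0.51, -0.55 to -0.48). The 3 higher genes were Dcn, Fbln1 and Lum, which fibroblasts express. Without the members rich in fibroblast UMIs, described further on, the ratio was 0.31 for Dcn, -0.42 for Fbln1 and -0.24 for Lum. The fibroblast marker list as a whole summed to 1471 CPM in EC-Cx43-KO members and 1254 CPM in control members.

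In smooth muscle the targeted gene differed between libraries by less than its counting error. Gja1 (chromosome 10, 56377330 to 56402513, plus strand, GRCm38) had 642 UMIs in EC-Cx43-KO members and 439 in control members, or 131 and 133 CPM, a log2 ratio of -0.02 (-0.20 to 0.16). In cells chosen by endothelial markers, where the deletion was designed to act, it had 144 UMIs in the EC-Cx43-KO library and 92 in the control library, or 36.6 and 24.9 CPM, a log2 ratio of 0.55 (0.17 to 0.95). Endothelial Gja1 was therefore not lower in the library labelled EC-Cx43-KO. The deleted segment is not given in the sources used here, and a 3′ tag outside it does not report the deletion, so these counts do not check the labels. Of 16 connexin and adhesion genes measured 1 was higher, beside 6.88% over all genes. It was the cadherin gene Cdh11, whose ratio was -0.81 in members with Y-linked UMIs.

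Of the 23 gene lists compared, interferon-response genes had the highest median ratio in members. Of 27 measured genes 24 were higher in EC-Cx43-KO members and none lower, with a median log2 ratio of 2.10, beside 6.88% higher and a median of -0.02 over all genes. The whole list summed to 1408 CPM in EC-Cx43-KO members and 507 CPM in control members. Ifit3, which binds viral RNA complexes with Ifit1, had 627 UMIs in EC-Cx43-KO members and 32 in control members (log2 ratio 3.72, 3.21 to 4.28). Isg15, a ubiquitin-like modifier, had 607 UMIs in EC-Cx43-KO members and 48 in control members (3.09, 2.66 to 3.54). Irf7, the factor that amplifies type I interferon, had 154 UMIs in EC-Cx43-KO members and 8 in control members (3.70, 2.68 to 4.93). Bst2, the membrane tether tetherin, had 1145 UMIs in EC-Cx43-KO members and 216 in control members (1.83, 1.62 to 2.05). The exceptions include Ifi27, with 1071 UMIs in EC-Cx43-KO members and 630 in control members, a log2 ratio of 0.19.

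The promoters of 3 of these genes are shown because they carry the element that names the programme. Each run is 300 bases of RefSeq sequence (GRCm38.p6), 250 before and 50 after the start site, 5′ to 3′ on the gene's strand, with matches in capitals to GAAA, any 2 bases and GAAA again, on either strand. They lie at chr4:156200769-156201068 (minus strand) for Isg15, chr19:34583279-34583578 (plus strand) for Ifit3 and chr8:71537423-71537722 (minus strand) for Bst2.
Isg15: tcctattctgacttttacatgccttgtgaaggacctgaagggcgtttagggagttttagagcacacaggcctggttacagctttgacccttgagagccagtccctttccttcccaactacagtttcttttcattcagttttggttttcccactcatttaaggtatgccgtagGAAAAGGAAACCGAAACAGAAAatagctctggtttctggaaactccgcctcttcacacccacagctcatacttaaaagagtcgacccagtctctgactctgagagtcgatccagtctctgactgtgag
Ifit3: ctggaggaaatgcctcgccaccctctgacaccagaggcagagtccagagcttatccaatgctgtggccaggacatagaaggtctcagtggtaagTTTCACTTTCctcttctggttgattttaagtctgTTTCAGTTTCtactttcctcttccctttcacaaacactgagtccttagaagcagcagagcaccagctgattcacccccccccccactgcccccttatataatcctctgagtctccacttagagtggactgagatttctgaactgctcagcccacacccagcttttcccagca
Bst2: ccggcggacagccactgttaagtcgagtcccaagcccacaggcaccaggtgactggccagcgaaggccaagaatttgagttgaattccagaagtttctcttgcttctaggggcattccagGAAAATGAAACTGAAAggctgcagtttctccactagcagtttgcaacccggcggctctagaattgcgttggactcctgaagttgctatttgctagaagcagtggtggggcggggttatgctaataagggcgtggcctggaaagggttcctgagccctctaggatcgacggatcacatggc

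Overlapping matches run together in Isg15 and Bst2. A match was found in 11 of 19 measured interferon-response genes that have a RefSeq promoter, or 57.9%, beside 3.99% of all 27025 genes that have one. Among 24 contractile genes with a promoter 1 held a match. A match describes these letters and is not a measured binding site.

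**Figure D2:**
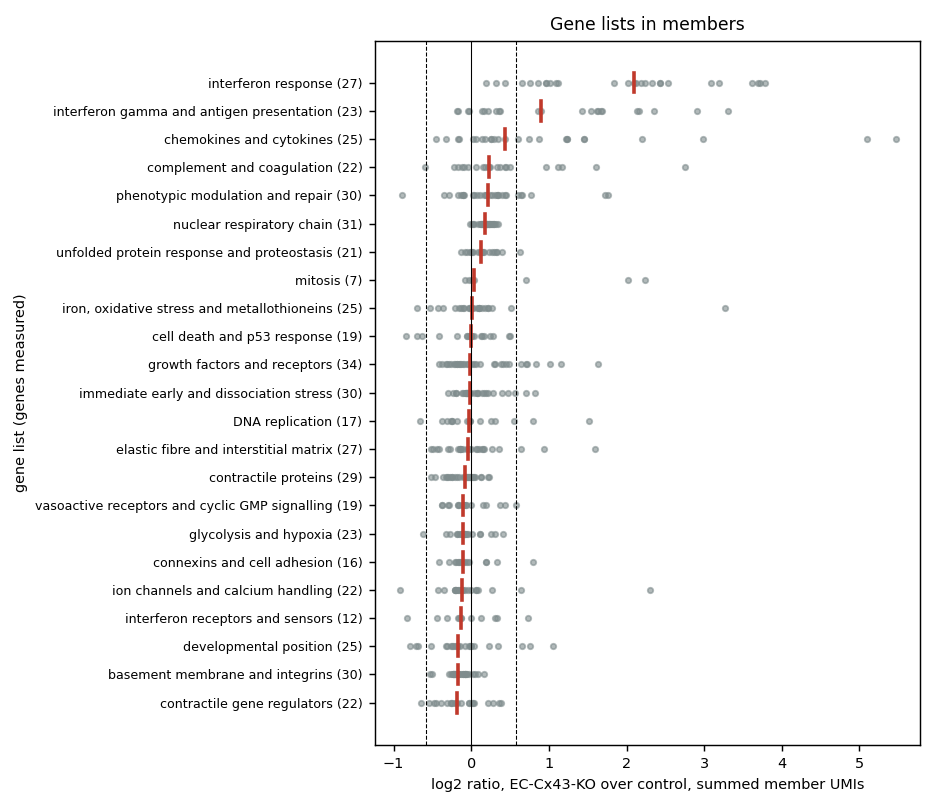
Log2 ratio, EC-Cx43-KO over control, of each measured gene (grey points) of the gene lists in members, with list medians (red bars) and the size of 0.58 in each direction (dashed lines). The interferon response list had the highest median, 2.10, and the contractile list had a median of -0.08 with no gene past the dashed lines.

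Genes of interferon gamma response and antigen presentation were higher in part, 13 of 23, with a median of 0.90 and none lower. Over all genes 6.88% were higher and 5.16% lower. Gbp3, a guanylate-binding protein, had 189 UMIs in EC-Cx43-KO members and 17 in control members (log2 ratio 2.90, 2.19 to 3.71). B2m, the light chain of class I antigen-presenting molecules, was at 366 CPM in EC-Cx43-KO members and 332 CPM in control members. Of 12 interferon receptor and sensor genes 1 was higher, the RNA sensor gene Tlr3, and 1 lower, the kinase gene Tyk2.

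The interferon list was also higher outside smooth muscle, in cells of the same 2 libraries. Its median log2 ratio was 1.08 in cells chosen by fibroblast markers, 1.04 by neutrophil markers, 0.89 by macrophage markers, 0.40 by T or NK markers and 0.37 by endothelial markers. In members it was 2.10. These classes differ in depth and in the genes that reach 20 UMIs, and the difference between them was not tested.

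The interferon UMIs were spread unevenly over members. In the EC-Cx43-KO library 47 members held at least 20 UMIs of the list and 69.3% of all its UMIs. In the control library 9 members did, with 21.0% of its UMIs. The median member held 4 such UMIs in the EC-Cx43-KO library and 3 in the control library. After each cell was thinned to 2000 UMIs, 8.55% of EC-Cx43-KO members (40 of 468, 95% exact binomial interval 6.18 to 11.5) and 2.18% of control members (7 of 321, 0.881 to 4.44) held at least 5. The 47 cells had 1176 CPM of Myh11 and the other EC-Cx43-KO members 3340 CPM. In members under 20 such UMIs, a class set by these same counts, Ifit3 was at 3.39 CPM in EC-Cx43-KO and 2.86 CPM in control. Isg15 was at 13.8 CPM in EC-Cx43-KO and 7.64 CPM in control members of that class.

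**Figure D3:**
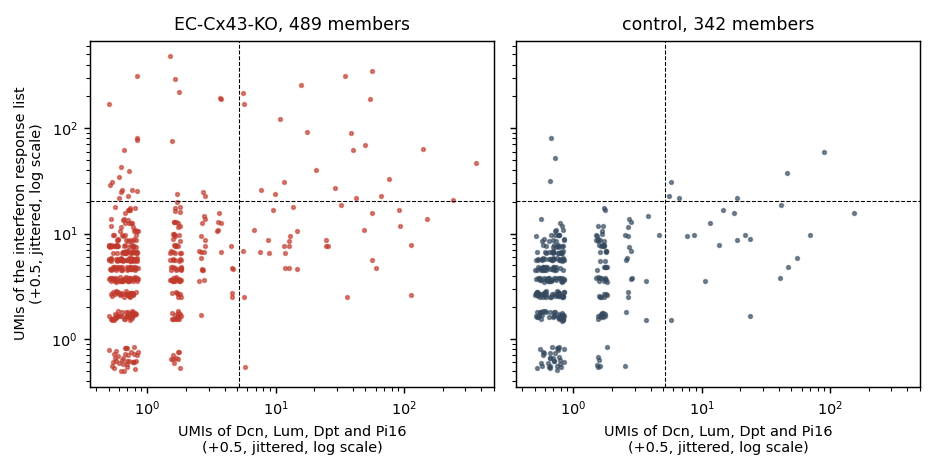
UMIs of the interferon response list against UMIs of the fibroblast genes Dcn, Lum, Dpt and Pi16 in each member (log axes, 0.5 added, jittered), EC-Cx43-KO left and control right, with dashed lines at 20 and 5 UMIs. Above 20 interferon UMIs lie 47 EC-Cx43-KO members, 25 of them with under 5 fibroblast UMIs, and 9 control members, 3 of them with under 5.

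The interferon list was also compared within classes of members by sex-linked transcripts, and the difference between classes was not tested. Xist, the RNA of the inactive X, was found without the Y-linked genes Ddx3y, Eif2s3y, Kdm5d and Uty in 212 EC-Cx43-KO members and 216 control members. Y-linked UMIs without Xist were found in 205 EC-Cx43-KO members and 80 control members. The list summed to 2200 CPM in Xist-bearing EC-Cx43-KO members and 494 CPM in Xist-bearing control members. In members with Y-linked UMIs it summed to 656 CPM in the EC-Cx43-KO library and 452 CPM in the control library. In the 21 EC-Cx43-KO and 18 control members with both kinds of transcript it summed to 574 and 589 CPM. In the 51 EC-Cx43-KO and 28 control members with neither, it summed to 951 and 975 CPM. The list median was 2.75 in Xist-bearing members, with 23 of 25 genes higher, and 0.73 in members with Y-linked UMIs, with 10 of 19 higher. Of 29 contractile genes none was higher in either class. The 6.88% higher over all genes refers to all members, and the share within each class is not given here. With only 80 control members in the Y-linked class, counting error is larger there. Bst2 had a log2 ratio of 2.74 (2.46 to 3.02) in Xist-bearing members and 0.19 (-0.21 to 0.60) in members with Y-linked UMIs. Of the 47 members rich in interferon UMIs, 34 were Xist-bearing and 11 had Y-linked UMIs. Pooled animals cannot be told apart within these classes, so the number of mice behind each is unknown.

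**Figure D4:**
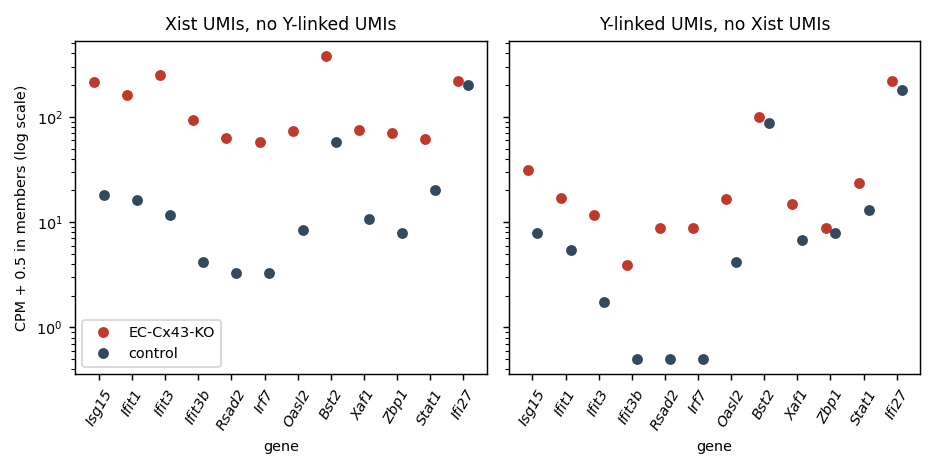
CPM plus 0.5, on a log axis, of 12 interferon-response genes in members with Xist and no Y-linked UMIs (left panel) and with Y-linked and no Xist UMIs (right panel), EC-Cx43-KO left and control right for each gene. Bst2 stood at 378 CPM in EC-Cx43-KO and 56.7 CPM in control members of the left panel, and at 99.1 CPM in EC-Cx43-KO and 87.0 CPM in control members of the right panel.

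Chemokine and cytokine genes were higher in 12 of 25 cases, with a median of 0.43 and none lower, beside 6.88% higher over all genes. Cxcl5, a neutrophil attractant, had 458 UMIs in EC-Cx43-KO members and 9 in control members, and 5 EC-Cx43-KO cells held 91.0% of them. Il6, the acute-phase cytokine, had 252 UMIs in EC-Cx43-KO members and 37 in control members. Cxcl10, an interferon-induced attractant of T cells, had 197 UMIs in EC-Cx43-KO members and 2 in control members, a log2 ratio of 5.47 with 3 UMIs set for the control (interval of the counts 4.18 to 9.11). Of its EC-Cx43-KO UMIs 93.9% lay in 5 cells, and members with Y-linked UMIs had 5 Cxcl10 UMIs in the EC-Cx43-KO library and 0 in the control library, too few for a ratio. Cxcl1, another neutrophil attractant, had 1094 UMIs in EC-Cx43-KO members and 314 in control members (log2 ratio 1.23, 1.05 to 1.42).

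In the EC-Cx43-KO library, but not in the control library, most UMIs of several of these genes lay in members with fibroblast transcripts. In the EC-Cx43-KO library 54 members, and in the control library 24, held at least 5 UMIs of Dcn, Lum, Dpt and Pi16 together. These cells held 90.1% of the UMIs of Cxcl5, Il6, Ccl11 and Cfb in the EC-Cx43-KO library and 18.5% in the control library. The 4 genes had 797 UMIs in EC-Cx43-KO members, 61.9% of them in 5 cells, and only 54 in control members. The Myh11 level of the members rich in fibroblast UMIs was 1060 CPM in the EC-Cx43-KO library and 1008 CPM in the control library. It was 3371 and 3496 CPM in the remaining members. Without the members rich in fibroblast UMIs the log2 ratio was 0.25 (-1.03 to 1.63) for Cxcl5 and 0.09 (-0.60 to 0.79) for Il6. It was 1.34 (1.03 to 1.66) for Cxcl1, 3.30 (2.75 to 3.91) for Isg15 and 3.41 (2.79 to 4.10) for Ifit3 without them. Few cells carry the interferon ratios there too. Of the 435 EC-Cx43-KO members left, 25 held 2528 of the 4398 interferon UMIs. In that subset 5 of 22 chemokine genes and 20 of 25 interferon genes were higher. The share over all genes in that subset is not given here.

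**Figure D5:**
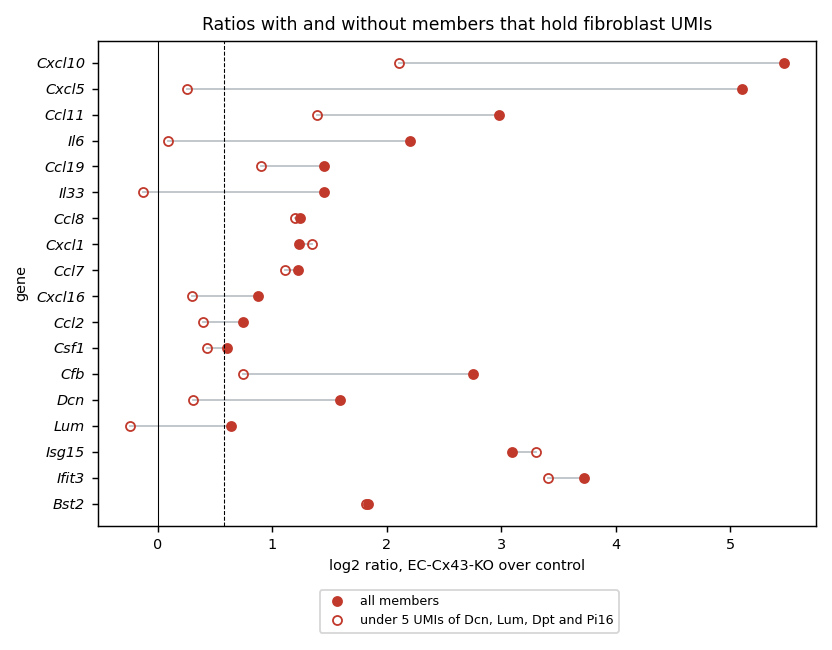
Log2 ratio, EC-Cx43-KO over control, of chemokine, fibroblast and interferon genes in all members (filled) and in members with under 5 UMIs of Dcn, Lum, Dpt and Pi16 (open), with the size of 0.58 as a dashed line. Cxcl5 was at 5.10 in all members and 0.25 in the subset, while Isg15 was at 3.09 and 3.30.

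Of 30 genes of phenotypic modulation and repair 6 were higher and 1 lower, with a median of 0.22. Over all genes 6.88% were higher and 5.16% lower. Tnc, the matrix protein tenascin C, was at 160 CPM in EC-Cx43-KO members and 94.1 CPM in control members (log2 ratio 0.77, 0.58 to 0.96). Mmp3, a matrix protease, was at 75.1 CPM in EC-Cx43-KO members and 139 CPM in control members (-0.89, -1.09 to -0.69). Ccn2, a matricellular protein induced by stretch, was at 3266 CPM in EC-Cx43-KO members and 3095 CPM in control members. Without the members rich in fibroblast UMIs the ratio was 0.37 for Tnc and -0.30 for Mmp3. Among members with no UMI of the 5 lineage genes of the rule the ratio of Mmp3 was 0.95, the opposite direction.

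Of 25 mitosis and cell cycle genes listed, 7 reached 20 UMIs, of which 3 were higher and none lower, with a median of 0.04. Over all genes 6.88% were higher and 5.16% lower. The 3 higher cell cycle genes were Kif11, Prc1 and Ccnd1, each with few UMIs, and Prc1 had a ratio of -0.95 in members with Y-linked UMIs. Kif11, a spindle motor, had 42 UMIs in EC-Cx43-KO members and 6 in control members (log2 ratio 2.24, 0.99 to 3.76). Cdkn1a, an inhibitor of the cell cycle, held most UMIs of the list and was at 302 CPM in EC-Cx43-KO members and 295 CPM in control members. Mki67, a marker of cycling cells, had 3 UMIs in EC-Cx43-KO members and 1 in control members. Of 17 DNA replication genes 2 were higher and 1 lower. Of 30 immediate early and stress genes 2 were higher, beside the same 6.88%. These were Fosl1 and Hspa1b, whose ratios were -0.73 and -0.48 in members with Y-linked UMIs. Fos, an immediate early gene that also responds to tissue dissociation, was at 4408 CPM in EC-Cx43-KO members and 4500 CPM in control members. Of 19 cell death and p53 genes 3 were lower, beside 5.16% over all genes. Among them was Sesn1, a stress-induced inhibitor of growth signalling, at 102 CPM in EC-Cx43-KO members and 182 CPM in control members (-0.84, -1.02 to -0.67).

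Further genes were named for the most extreme ratios among genes at least as abundant in members as in other cells, whether or not a list held them. Igfbp2, a binding protein of insulin-like growth factors, had 138 UMIs in EC-Cx43-KO members and 30 in control members (log2 ratio 1.63, 1.05 to 2.25). It is a gene of the growth factor list, of which 7 of 34 were higher and none lower, beside 6.88% higher over all genes. Zbtb25 had 193 UMIs in EC-Cx43-KO members and 19 in control members, and 1 EC-Cx43-KO cell held 144 of them. Slit2, an axon guidance ligand, had 39 UMIs in EC-Cx43-KO members and 61 in control members (-1.22, -1.83 to -0.61). Pcdh11x, a protocadherin, had 227 UMIs in EC-Cx43-KO members and 338 in control members, with 59.0% and 62.4% of them in 5 cells of each library, and its ratio was 0.62 in members with Y-linked UMIs.

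Members also held UMIs of a gene that the rule used to limit other lineages. Pecam1, an adhesion molecule of endothelium, leukocytes and platelets that the rule used, had 344 UMIs in EC-Cx43-KO members and 297 in control members, or 70.0 and 89.8 CPM. The endothelial genes Kdr, Egfl7, Tie1 and Emcn together had 7 UMIs in EC-Cx43-KO members and 3 in control members. In cells chosen by endothelial markers Pecam1 was 3.04 times those 4 genes in the EC-Cx43-KO library and 3.31 times in the control library. In members it was 49.1 times in the EC-Cx43-KO library and 99 times in the control library, over only 7 and 3 UMIs of the 4 genes. Cells chosen by T or NK markers also had high values, 33 times in the EC-Cx43-KO library and 130 times in the control library, over 5 and 1 UMIs. The rule allowed Pecam1 only without the other 4 lineage genes, Cdh5 among them. Of the members with 1 lineage gene, 138 of 213 in the EC-Cx43-KO library and 113 of 167 in the control library held Pecam1. The setting with none of the 5 lineage genes therefore left out mostly members with Pecam1. Neutrophil markers summed to 123 CPM in EC-Cx43-KO members and 856 CPM in control members, and 1 control cell held 785 of the 1463 control UMIs of S100a8.

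Among members, metallothionein Mt1, the nuclear RNA Malat1, Mt2, Timp1 and Acta2 led the 15 genes with the highest ratio of variance to mean after thinning to 1000 UMIs, ranked by the lower value of the 2 libraries. S100a8 had a ratio of 4.27 in EC-Cx43-KO members and 60.5 in control members, the second highest there after S100a9. For Acta2 the ratio was 5.75 in EC-Cx43-KO members and 5.01 in control members, beside a median of 1.06 over 3035 genes in both. Clustering without interferon and sex-linked genes gave 8 groups at the finer resolution. The group led by the interferon-response gene Ifi44, Gpm6b and Prg4 also had Dcn, Lum and Pi16 among its leading genes. Interferon genes were left out of the clustering but not of the leading genes. This group held 53 EC-Cx43-KO cells and 20 control cells, 10.8% of EC-Cx43-KO and 5.85% of control members. The group led by Esm1, Thbs1 and Hmga1 held 35 EC-Cx43-KO cells and 31 control cells, 7.16% and 9.06% of members. The group led by Igfbp5, Notch3 and Des held 81 EC-Cx43-KO cells and 50 control cells, 16.6% and 14.6% of members. The group led by the neutrophil genes Retnlg, S100a8 and S100a9 held 9 EC-Cx43-KO cells and 8 control cells, 1.84% and 2.34% of members. The group led by Fam107a, Tnni3k and Cfap45 held 76 EC-Cx43-KO cells and 77 control cells, 15.5% and 22.5% of members. Groups led by Ntng1, Carmn and Lepr held 18.2%, 15.5% and 14.3% of EC-Cx43-KO members and 15.2%, 18.7% and 11.7% of control members.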

How the data were processed

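Single-cell RNA was measured in 2 libraries, 1 per group, each from pooled arteries. The deposited files hold raw UMI counts per gene and cell barcode, made with Cell Ranger 8.0.1 and STAR against mm10, per the submitters' processing notes. No barcode had under 501 UMIs. Members were selected as described, other cell classes by marker genes, and doublets were left to the lineage limit of the rule, with a removal of simulated doublets as an alternative. Members, gene lists and rules were chosen with earlier results of these data known.

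UMIs were summed over members per library and scaled to the members' total. Log2 ratios carry exact conditional binomial intervals at 95%. A count under 3 in a library was set to 3. With 1 library per group no test was made. Genes were named by a rule: the 12 highest and 12 lowest ratios among genes with at least 100 UMIs, up to 4 most abundant and 4 most different genes of each list with at least 50 UMIs, the 15 highest ratios to other kept cells and the 15 most variable genes. Klf5, Mki67, Prc1, Ccnd1, Tagln2, Cfb and genes named in counts of cells, clusters or sex-linked classes were chosen after their values were seen. Ratios and intervals were tested on simulated counts. Sums and intervals were computed with scipy 1.17.1 in Python 3.11.15, and clusters with leidenalg 0.10.2.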

Additional observations from a re-analysis of the deposited data

Results flagged for a closer look

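Members split by sex-linked transcripts gave opposite directions for 3 of the listed or named genes when both classes had to pass the size of 0.58, with 50 or more UMIs each and intervals off 0, and the difference between the splits was not tested. Named genes that passed the size in all members and turned round at a smaller size or on fewer UMIs are given below under the processing. The ratios are log2 values, EC-Cx43-KO over control, first in members with Xist and no Y-linked UMIs and then in members with Y-linked and no Xist UMIs. Notch3, a receptor of mural cells, had -0.633 in Xist-bearing members and 2.81 in members with Y-linked UMIs, where it had 108 UMIs in EC-Cx43-KO members and 6 in control members. Pf4, a platelet chemokine, had -0.624 in Xist-bearing members and 1.35 in members with Y-linked UMIs. Spp1, the gene of osteopontin, had -0.916 in Xist-bearing members and 1.35 in members with Y-linked UMIs. Few cells may carry these 2 genes. Spp1 was at 1779 CPM in the 17 members of the group led by Retnlg, and at most 212 CPM in the other groups. Of the 189 UMIs of the platelet markers Ppbp, Pf4, Gp9 and Itga2b in control members, 5 cells held 49.2%. The part of such cells in the signs was not tested.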

How the results depend on the processing

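No paired analysis was possible because each group has 1 library. Settings on members with few fibroblast or neutrophil UMIs were chosen after seeing the data. The count of genes higher, 811, was 228 with at least 100 UMIs and 1337 without a filter. The count of genes lower, 608, was 136 with at least 100 UMIs, 1218 without a filter, 950 by mean single-cell CPM and 965 in Xist-bearing members. Phenotypic modulation genes counted as higher, 6, numbered 3 by mean single-cell CPM, 12 in Xist-bearing members and 2 with under 5 fibroblast UMIs. Chemokine genes, 12, numbered 5 with under 5 fibroblast UMIs. Interferon-response genes, 24, numbered 10 in members with Y-linked UMIs. Interferon gamma genes, 13, numbered 6 with at least 100 UMIs and 5 in members with Y-linked UMIs. Contractile genes past the size, 0, numbered 2 with no lineage gene of another type, 3 in Xist-bearing members and 3 in members with Y-linked UMIs. Fewer cells or genes enter several of these settings, and the cause was not tested. The share of members kept its direction under the limits on genes, mitochondrial UMIs, Myh11, lineage genes, doublets and fibroblast or neutrophil UMIs that were tried.

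The log2 ratio turned round in members with Y-linked UMIs for Cdh11 (-0.81), Cxcl10 (-0.62, from 5 and 0 UMIs, where the sign comes from setting the control to 3), Fosl1 (-0.73), Hspa1b (-0.48), Klf5 (0.053), Mmp3 (0.0055), Pcdh11x (0.62), Prc1 (-0.95) and S100a8 (0.19), and by mean single-cell CPM for Prc1 (-0.47). With none of the 5 lineage genes it turned round for Cfb (-0.76), Klf5 (0.050) and Mmp3 (0.95). With under 5 fibroblast UMIs it turned round for Fbln1 (-0.42) and Lum (-0.24). Only named genes with a ratio of at least 0.58 in size in all members are listed as turned round. Depth limits genes with few UMIs, such as Klf5 and Mki67, whose intervals are wide.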
